A study of Mus musculus with 12 samples.

Results

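Distal regions with a single E-box were the BMAL1-ChIP-seq regions in which 1 copy of CACGTG was the only canonical E-box, the AP-1 site TGASTCA (S is C or G) was absent, and the midpoint lay more than 1000 bp from any protein-coding start site. They were chosen on measured values: overlapping peaks (1 bp or more) of 6 libraries were joined into regions, and a region was kept if at least 2 libraries called it. This gave 855 regions, of 4515 distal regions and 7452 regions of any kind called in at least 2 libraries, and of 16818 merged regions in all. The libraries came from primary mouse adult fibroblasts (MAFs), grown from ears of adult female mice of strain C57BL6/J, either mock-irradiated (control, n = 3) or made senescent with 20 Gy of X-rays (senescent, n = 3). Cells of both groups were synchronized with 100 nM dexamethasone, a glucocorticoid that sets cultured clocks to a shared phase, and were cross-linked 12 hours later. The deposited data were a list of scored peaks for each library, without reads. Depth is therefore unknown, a region without a call is not shown to be unbound, and the cell type could not be checked against marker genes.

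BMAL1 binds DNA as a heterodimer with CLOCK. Both proteins carry a basic helix-loop-helix domain that reads the E-box, a palindrome in which each partner contacts 1 side. Away from promoters such sites are found in enhancers, from which the clock factors act on the transcription of rhythmic genes at a distance. Clock-controlled genes often carry a second, imperfect E-box close to the first, and the spacing of the pair has been described as a feature of strong BMAL1:CLOCK sites.

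To show what these sites look like, the sequence around the E-box is given for regions near the top of every list. The E-box is in capitals with 20 bp to each side, on the forward strand of GRCm38 (mm10), from the RefSeq sequence. Each line gives the gene with the nearest protein-coding start site and the position of the bases printed.

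Nr1d1, chr11:98783522-98783567: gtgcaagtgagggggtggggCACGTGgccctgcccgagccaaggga
Tsc22d3, chrX:140520364-140520409: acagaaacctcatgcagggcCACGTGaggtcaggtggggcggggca
Ttc17, chr2:94273360-94273405: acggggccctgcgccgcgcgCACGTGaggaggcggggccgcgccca
Smim17, chr7:6410182-6410227: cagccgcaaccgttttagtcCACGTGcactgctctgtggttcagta
Chrm5, chr2:112493320-112493365: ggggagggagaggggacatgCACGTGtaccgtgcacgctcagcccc

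A second set shows a feature more frequent at these E-boxes than at E-boxes in the surrounding DNA, a hexamer 1 substitution away from CACGTG that follows or precedes the E-box after a gap of 6 or 7 bp. Both hexamers are in capitals, and the gap is the run of lower-case bases between them. The gap is 7 bp at Por, Nfia and Trim47 and 6 bp at Cnnm4 and Sobp.

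Por, chr5:135674959-135675004: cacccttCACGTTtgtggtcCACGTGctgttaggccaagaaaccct
Nfia, chr4:97757476-97757521: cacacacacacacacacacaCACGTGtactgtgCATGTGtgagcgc
Trim47, chr11:116117740-116117785: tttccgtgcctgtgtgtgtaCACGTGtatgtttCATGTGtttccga
Cnnm4, chr1:36470446-36470491: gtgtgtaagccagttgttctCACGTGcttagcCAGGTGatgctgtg
Sobp, chr10:43052499-43052544: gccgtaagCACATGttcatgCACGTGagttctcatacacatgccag

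A last set serves the comparison of the groups. Tusc3, Pgf and Trib1 lay beside regions called in all 3 senescent libraries and in no control library, Cd9 and Dbi beside regions with the opposite pattern. Near Wwp2 there were 2 regions to compare, 1 in an intron called in control libraries only and 1 downstream called in all 6 libraries but ranked lower in senescence. Hlf, Atf6b and Tead4 lay beside regions called in all 6 libraries whose rank differed between the groups.

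Tusc3, chr8:39153023-39153068: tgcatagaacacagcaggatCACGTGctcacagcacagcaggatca
Pgf, chr12:85192883-85192928: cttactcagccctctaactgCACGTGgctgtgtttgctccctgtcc
Trib1, chr15:59728455-59728500: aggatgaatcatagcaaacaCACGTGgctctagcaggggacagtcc
Cd9, chr6:125455892-125455937: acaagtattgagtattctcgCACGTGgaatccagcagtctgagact
Dbi, chr1:120115867-120115912: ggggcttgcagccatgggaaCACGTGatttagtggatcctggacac
Wwp2 intron, chr8:107522417-107522462: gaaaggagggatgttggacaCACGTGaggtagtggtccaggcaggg
Wwp2 downstream, chr8:107560489-107560534: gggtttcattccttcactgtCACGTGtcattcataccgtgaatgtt
Hlf, chr11:90369837-90369882: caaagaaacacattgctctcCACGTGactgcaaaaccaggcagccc
Atf6b, chr17:34655772-34655817: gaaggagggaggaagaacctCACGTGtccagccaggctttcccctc
Tead4, chr6:128282296-128282341: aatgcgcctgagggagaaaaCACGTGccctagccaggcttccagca

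The 6 lists ranged from 2794 to 10601 peaks. Because the score of a peak (taken to be a -log10 q-value) grows with the depth of its own library, scores were used only to rank peaks within a list. Rank 1 is the best score, tied scores share a mean rank, and a percentile rank is the rank as a percent of the length of the list, so that low values are strong peaks.

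An E-box was a common feature of distal BMAL1 regions. Exactly 1 E-box, with or without an AP-1 site, was present in 1218 of the 4515 distal regions (27.0%) and in 5.36% of 9030 stretches of the same length placed 5000 bp to each side. By the E-box itself, 397 of the 855 regions were intergenic, 422 intronic, 20 in coding exons and 16 in UTRs. The nearest protein-coding start site was a median of 22634 bp away (quartiles 6554 and 60412 bp), and 120 regions lay beyond 100000 bp. Their median width was 384 bp, against 325 bp for the 2050 distal regions with neither motif.

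Around the limit of 1000 bp the choice was a fine one. The nearest regions inside were those at Ctsl (1013 bp), Slc7a1 (1014 bp) and Hspa8 (1019 bp), and the nearest outside, with 1 E-box each, were at Prdx6 (995 bp), Ltbp4 (993 bp) and Igf1r (988 bp). The midpoint was used, so 9 regions had an E-box within 1000 bp of a start site. On the number of libraries, 240 of the 855 were called in exactly 2, and a further 391 distal regions with the same motifs were called in 1 library and left out.

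The E-box lay close to the middle of the peak, which was not used to choose the regions. Its distance from the centre of the best-ranked peak was a median of 46 bp (quartiles 21 and 89 bp), and 450 of 855 (52.6%) lay within 50 bp. A position drawn evenly along each region would give 28.0%. In the 724 promoter regions with 1 E-box and no AP-1 site the median was 56 bp, with 45.9% within 50 bp and 26.6% from an even position. The E-boxes at Smim17 (1 bp from the centre), Trib1 (0 bp), Tusc3 (7 bp), Atf6b (15 bp) and Hlf (16 bp) were central. Those of the downstream Wwp2 region (360 bp) and of a region at Setd4 (418 bp) were not. In both of these the merged region was wide, 2958 bp at Wwp2 and 985 bp at Setd4.

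A second, E-box-like hexamer stood beside some of the E-boxes. It occurred at a gap of 6 or 7 bp in 72 of the 855 regions (8.42%), in 2.21% of the promoter regions with 1 E-box, and in 3.02% of 1922 E-boxes that lay 2000 to 10000 bp from these regions in no peak of any library. The excess was at those gaps. A hexamer was found in 5.26% of the regions at a gap of 6 bp and in 3.63% at 7 bp, and at no other gap from 0 to 30 bp in more than 2.34%. Of the hexamers counted, CACATG (with its reverse complement CATGTG) was the most frequent, with 38 sites (4.44 per 100 regions, against 1.35 per 100 of the uncalled E-boxes). AACGTG, as at Por, had 7 sites (0.819 per 100 regions, against 0.104 per 100 of the uncalled E-boxes). CACCTG, as at Cnnm4, also had 7 (0.819 per 100), closer to its 0.624 per 100 of the uncalled E-boxes. The gaps of 6 and 7 bp were taken from what is known of BMAL1:CLOCK sites, and the counts are a description, with no test.

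**Figure D1:**
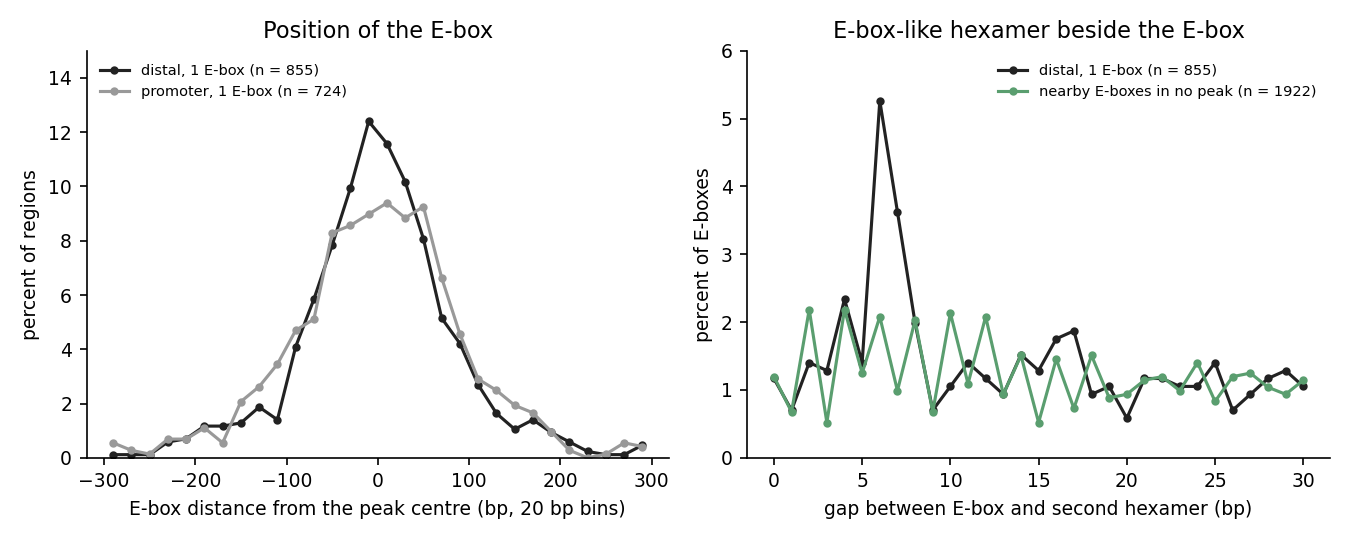
Left, percent of regions (y axis) by the signed distance in bp of the E-box from the centre of the best-ranked peak (x axis), for the 855 distal regions (black) and 724 promoter regions with 1 E-box (grey). Right, percent of E-boxes (y axis) with an E-box-like hexamer at each gap in bp (x axis), for the 855 regions (black) and 1922 nearby E-boxes in no peak (green). The black curve peaks at the centre on the left, and at gaps of 6 bp (5.26%) and 7 bp (3.63%) on the right.

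Of the other sequence features, 60 of the 855 E-boxes (7.02%) lay in repeat-masked sequence, against 371 of the 1922 uncalled nearby E-boxes (19.3%) and 1.24% at promoters. The authors kept only read pairs with a uniquely mapped end, which can limit calls in repeats, and its effect here was not tested. The median GC content around the E-box was 51%, between the 48% of uncalled E-boxes and the 63% of promoter E-boxes, and the median ratio of observed to expected CpG was 0.379, 0.318 and 0.813 in that order. Within 100 bp of the peak centre CGCGTG was present in 5.61% of the regions and in 0.702% of windows 5000 bp away, AACGTG in 7.60% and 2.51%, and CATGTG in 27.1% and 18.2% (both strands, overlap with the second hexamer above included). These hexamers were not particular to single-E-box regions. Distal regions with neither motif held CGCGTG in 4.29%, AACGTG in 7.41% and CATGTG in 26.5% of windows. TEAD sites (GGAATG) were in 18.9% of the windows and in 11.9% of those 5000 bp away, and in 23.5% of distal regions with neither motif. The palindromic site of the glucocorticoid receptor was present in 5 of the 855 windows (0.585%, against 0.292% away from them).

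To see how widely the regions were called, they were sorted by the number of control and of senescent libraries with a peak. All 6 libraries called 160 of the 855 (18.7%, 95% Wilson interval 16.2% to 21.5%), where 13.7% of all distal regions were called in all 6. Calls in at least 2 senescent libraries and no control library, here senescent-only, were found for 267 (31.2%, 28.2% to 34.4%), against 23.2% of all distal regions. Control-only regions, by the same rule reversed, numbered 90 (10.5%, 8.64% to 12.8%), against 19.6% of all distal regions. These intervals cover counting error only. Since the same calls chose the regions, the shares are a description. All 3 libraries of the group called 132 of the senescent-only regions (15.4% of the 855, against 9.83% of all distal regions) and 33 of the control-only regions (3.86%, against 5.49%).

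The split differed by kind of region. Distal regions with neither motif were senescent-only in 15.9% and control-only in 29.1% of cases. Distal regions with 2 or more E-boxes and no AP-1 site (182 regions) were senescent-only in 32.4%, control-only in 2.75% and called in all 6 libraries in 40.1%. Of the promoter regions with 1 E-box, 24.0% were senescent-only and 4 of 724 (0.552%) control-only. The control-only share of the single-E-box regions was 6.32% at 1000 to 5000 bp from a start site and 18.3% beyond 100000 bp, while over all distal regions it was 13.1% and 30.7% in the same bins. The senescent-only share was 28.7%, 34.2%, 28.9%, 35.3% and 33.3% over the 5 bins of distance, with no steady trend, against 22.1% to 23.8% of all distal regions.

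List length touched these counts. Control replicate 3 and senescent replicate 2 had the longest lists, and 29 of the 48 regions called in 1 library of each group were called in just those. With the same number of peaks from every list, only 539 regions met the rule. Of these, 153 were senescent-only and 87 control-only, so the counts are not shares of the 855. Leaving out senescent replicate 2 gave 151 and 118 in that order, leaving out control replicate 3 gave 374 and 36, and leaving out control replicate 1 gave 278 and 55.

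**Figure D2:**
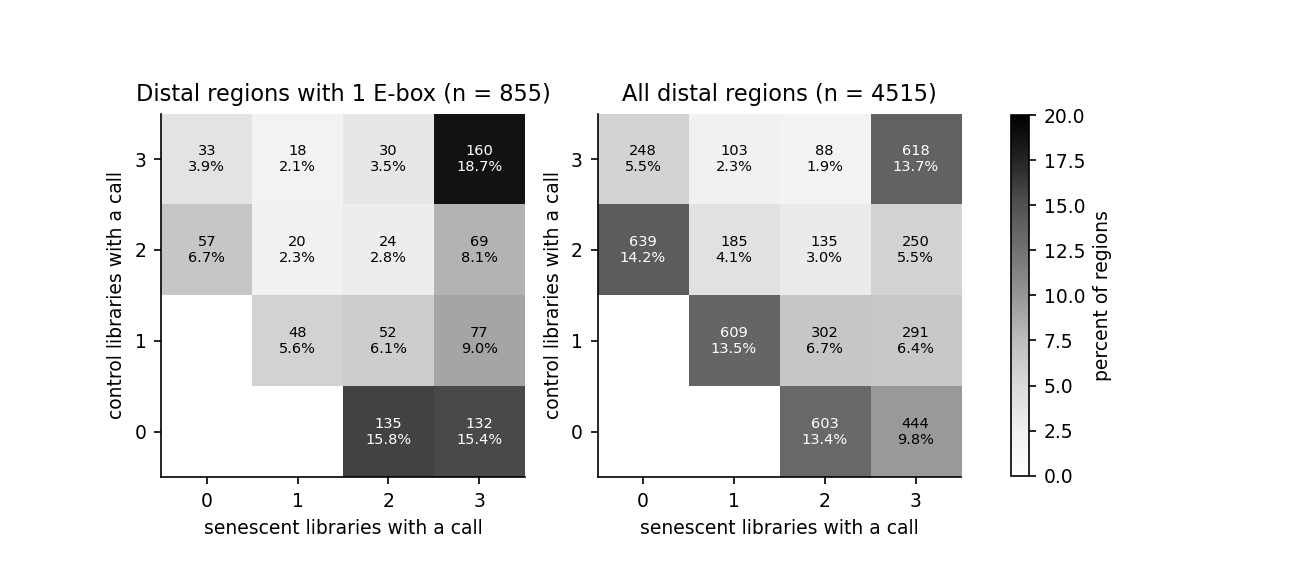
Number and percent of regions in each combination of control libraries (y axis, 0 to 3) and senescent libraries (x axis, 0 to 3) with a call, for the 855 distal regions with 1 E-box (left) and all 4515 distal regions (right), with darker squares for a larger percent. Combinations with under 2 libraries were left out by the choice of regions. The 160 regions at 3 and 3 and the 267 in the bottom row stand out on the left.

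The classes also differed in where the E-box lay. In senescent-only regions it was within 50 bp of the centre in 163 of 267 (61.0%, 35.0% from an even position), with a median distance of 36 bp. In control-only regions it was within 50 bp in 39 of 90 (43.3%, 30.2% from an even position), with a median of 65 bp, and in regions called in all 6 libraries in 73 of 160 (45.6%, 16.8% from an even position). The second hexamer was present in 27 of 267 senescent-only regions (10.1%), 21 of 160 called in all 6 (13.1%) and 0 of 90 control-only regions, which allows a share of up to 3.33% (3 counts). Regions with it were called in a mean of 4.11 libraries and the others in 3.61. The RUNX site TGTGGTT was within 100 bp of the centre in 14.4% of control-only regions (8.64% to 23.2%), 4.87% of senescent-only regions (2.87% to 8.15%), 6.25% of those called in all 6 libraries and 11.7% of distal regions with neither motif. It was 1 of several motifs counted. Among the others, CAGCTG was in 7.78% of control-only and 18.4% of senescent-only regions, and the NF-Y site CCAAT in 32.2% and 20.6%. No motif was tested between the classes. Single-E-box regions made up 25.5% of senescent-only, 25.9% of all-6 and 10.1% of control-only distal regions, and in stretches of equal length 5000 bp away exactly 1 E-box was found in 3.87%, 9.47% and 4.45%.

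The next comparison asked whether each library, taken on its own, called these regions differently in senescence. Control replicates 1, 2 and 3 called 352, 335 and 553 of the 855 (41.2%, 39.2% and 64.7%), and senescent replicates 1, 2 and 3 called 583, 708 and 591 (68.2%, 82.8% and 69.1%). Each senescent library called more than each control library. As a share of all distal regions called by the library, they were 21.8%, 17.8% and 16.8% in control and 26.3%, 21.8% and 23.7% in senescent libraries. The means were 18.8% ± 2.66 (SD, n = 3) and 23.9% ± 2.27 (SD, n = 3), and the groups overlapped by a margin below the rounding, since control replicate 1 was above senescent replicate 2. With equal peak numbers they did not overlap, at 21.1% to 23.7% and 26.8% to 28.7%. The calls were those that chose the regions, so no p is given.

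The position of the E-box in the peak was measured in each library from its own peaks. The E-box was within 50 bp of the centre in 50.3%, 44.8% and 43.2% of the regions called by control replicates 1, 2 and 3 and in 62.1%, 56.8% and 58.9% of those called by senescent replicates 1, 2 and 3. The groups did not overlap. The means were 46.1% ± 3.71 (SD, n = 3) and 59.3% ± 2.68 (SD, n = 3), a difference of 13.2 percentage points (p = 0.1 by an exact two-sided permutation test, the lowest value possible with 3 against 3, adjusted p = 0.18 over 9 comparisons). Among the 160 regions called in all 6 libraries, where every library is measured on the same regions, the values were 51.2%, 50% and 41.2% in control and 56.9%, 58.1% and 57.5% in senescent libraries (means 47.5% ± 5.45 and 57.5% ± 0.625, SD, n = 3, exact p = 0.1). The adjusted p did not pass 0.05, and in this design no such comparison can. The replicates are labelled as separate samples without a statement that they were separate cultures, so the p-values measure the spread between these samples, which may be technical.

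**Figure D3:**
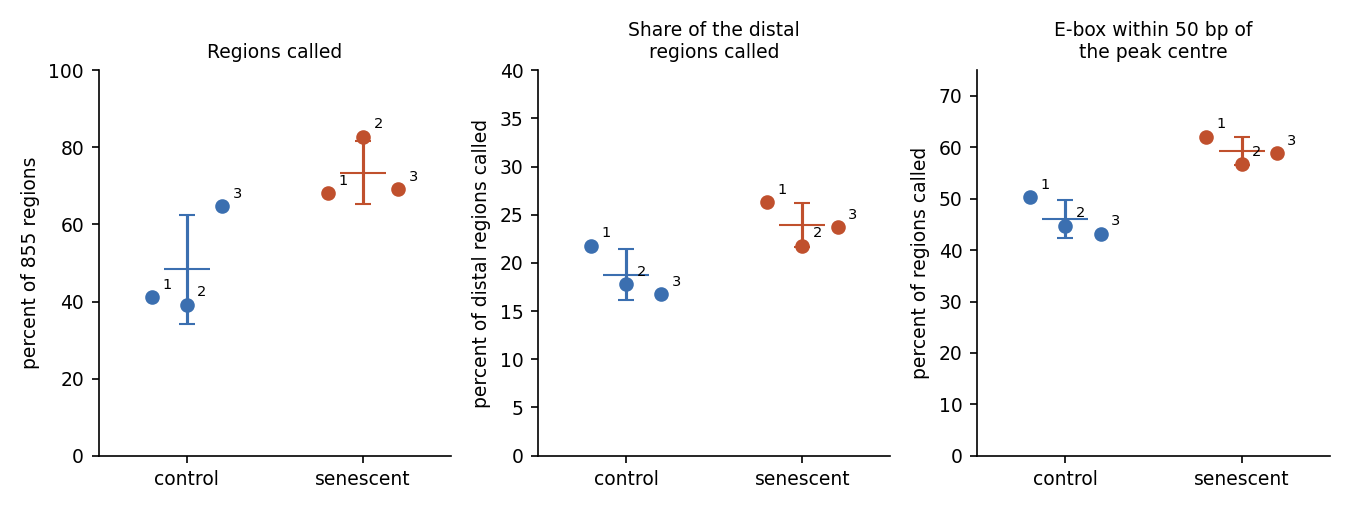
Values of each library (points, numbered by replicate) with the mean and SD of the group (bars, n = 3 control in blue and 3 senescent in red): percent of the 855 regions called, percent these regions made up of the distal regions called, and percent with the E-box within 50 bp of the centre of that library's peak (y axes, all from 0). The senescent points lie above all control points on the left and right, and the groups meet at 21.8% in the middle.

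Next, the rank of the regions was set against that of other kinds of region in the same list. The median percentile rank was 36.6, 38.3 and 25.2 in control replicates 1, 2 and 3 and 43.2, 28.0 and 38.2 in senescent replicates 1, 2 and 3. The groups overlapped, with a difference of 3.09 points between the means (p = 0.6 by an exact two-sided permutation test). With equal peak numbers they did not overlap, at 32.9, 36.9 and 39.2 in control and 44.9, 43.6 and 42.7 in senescent libraries (difference 7.47 points, exact p = 0.1). Distal regions with neither motif ranked worse in every list, with medians from 36.4 to 54.7. The single-E-box regions were ahead of them by a mean of 14.5 points (-14.5 ± 3.08, SD, n = 6) in 6 of 6 libraries (exact two-sided sign-flip permutation test, p = 0.03125, the smallest for 6 libraries, adjusted p = 0.0938 over 9 comparisons). Among regions called in all 6 libraries this was -3.82 points (exact p = 0.156). It was -8.17 points with equal peak numbers and -6.55 points with only peaks above the median of their list.

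A second E-box went with a better rank. Distal regions with 2 or more E-boxes had medians from 10.9 to 21.7, and the single-E-box regions were behind them by 17.6 ± 5.78 points (SD, n = 6) in 6 of 6 libraries (exact sign-flip permutation test, p = 0.03125, adjusted p = 0.0938). Within the set called in all 6 libraries the difference was 7.99 points (exact p = 0.03125). Regions with 2 or more E-boxes were also wider, with a median of 531 bp against 384 bp. With motifs counted only within 100 bp of the best peak centre the difference was 14.1 points. The part played by width was not tested. The imperfect second hexamer went the same way. In control replicates 1, 2 and 3, regions with it had a median percentile rank of 25.9, 27.2 and 21.3 and the others 37.4, 38.8 and 25.5. In senescent replicates 1, 2 and 3 the medians were 32.0, 21.4 and 33.2 with it and 44.4, 29.1 and 38.8 without. The difference was -8.84 ± 3.49 points (SD, n = 6, 6 of 6 libraries, exact p = 0.03125, adjusted p = 0.0938). It rested on 29 to 66 regions with the hexamer in a library, and among regions called in all 6 libraries it was -4.73 points (exact p = 0.0625). Regions whose E-box was within 50 bp of the centre did not rank detectably differently from the rest (-2.89 ± 4.29 points, SD, n = 6, exact p = 0.188). The value was -0.828 without control replicate 2 and -4.22 without senescent replicate 1.

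Against promoter regions with 1 E-box there was no shared direction. The distal regions were ahead in the control libraries, by -7.42, -3.67 and -0.358 points in replicates 1, 2 and 3, and behind in the senescent libraries, by 3.38, 5.68 and 1.62 points. Over the 6 libraries the mean was -0.129 ± 4.79 points (SD, n = 6, exact sign-flip permutation test, p = 0.906).

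**Figure D4:**
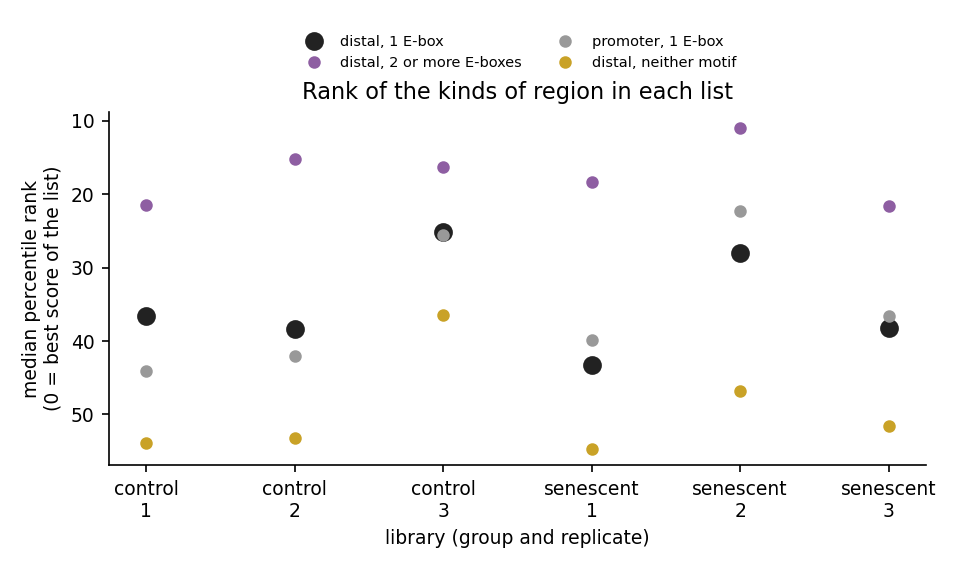
Median percentile rank (y axis, inverted so that stronger peaks are higher, 0 is the best score of a list) of 4 kinds of region in each of the 6 libraries (x axis). In every library distal regions with 2 or more E-boxes (purple) were highest and distal regions with neither motif (yellow) lowest, with single-E-box distal regions (black) and promoter regions with 1 E-box (grey) between them.

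The strongest single-E-box region of all was at Nr1d1, which encodes REV-ERBα, the nuclear receptor that represses Bmal1 transcription. The region (chr11:98782616-98784322), 8136 bp upstream of the start, ranked 7, 7 and 12 in control replicates 1, 2 and 3 and 8, 7 and 9 in senescent replicates 1, 2 and 3. The groups overlapped, and the E-box was 50 bp from the centre. The next, 22767 bp downstream of the start of Tsc22d3, which encodes the glucocorticoid-induced leucine zipper protein GILZ, ranked 25, 29 and 27 in control and 42, 40 and 50.5 in senescent libraries. These ranks did not overlap, but the difference in the fit described below was -0.27 ± 0.18 (SE, adjusted p = 0.337). As percentiles they overlapped, at 0.255 to 0.895 in control and 0.408 to 0.999 in senescent libraries.

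Strong regions in all 6 libraries lay near genes of several functions. An intergenic region assigned to Ttc17, 93240 bp from its start site, ranked 44, 46 and 58 in control and 20, 22 and 27 in senescent libraries. A region 14134 bp upstream of Por, the reductase that supplies electrons to microsomal cytochromes P450, ranked 28, 34 and 36 in control and 105.5, 87 and 70 in senescent libraries. Neither difference passed the fit (limma adjusted p = 0.306 at Ttc17 and 0.135 at Por). As percentiles the Por region overlapped, at 0.340 to 1.02 in control and 0.887 to 2.5 in senescent libraries. A region in an intron of Maml2, a Notch co-activator, was assigned by nearest start site to the predicted gene Gm17571 and had percentile ranks of 0.424 to 1.79 in control and 1.39 to 2.77 in senescent libraries. Its ranks were 50, 58 and 45 in control and 95, 136 and 140 in senescent libraries (limma adjusted p = 0.142).

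Of the remaining strong regions, Smim17 and Cxcl11 overlapped between groups. The region in an intron of Smim17 ranked 121, 78 and 89 in control and 66, 89 and 75 in senescent libraries. At Cxcl11, a chemokine gene induced by interferon, the E-box was in a UTR and the ranks were 83, 92.5 and 104.5 against 105.5, 114 and 73. Nfia, a nuclear factor I gene, had a region 20179 bp upstream that ranked 154.5, 121 and 202 in control and 47, 93 and 62 in senescent libraries. Chrm5, a muscarinic receptor gene, ranked 228.5, 169 and 199 against 74, 102 and 89. A region 252439 bp from the start of Enc1 had ranks of 65, 106 and 139.5 against 313, 209 and 257.5. Ranks at Nfia, Chrm5 and Enc1 did not overlap between the groups, and the adjusted p was 0.204, 0.159 and 0.135. As percentiles, Enc1 overlapped, at 1.32 to 3.17 in control and 2.13 to 7.42 in senescent libraries. Non-overlap was common. Of the 160 single-E-box regions called in all 6 libraries, it occurred in 21 with senescent and 45 with control libraries ahead. For all 1106 regions called in all 6 libraries these counts were 199 and 197.

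The senescent-only regions of best rank stood further down the lists. In an intron of Tusc3, which encodes a subunit of the oligosaccharyltransferase complex, a region ranked 145.5, 472 and 167 in senescent replicates 1, 2 and 3, or percentiles 3.45, 4.81 and 3.30, with no call in the control libraries. A region 15086 bp upstream of Pgf, the gene of placental growth factor, ranked 372, 440.5 and 616, and one at Arl4c, a small GTPase gene, 720, 421 and 666.5. The region 1257 bp upstream of Cnnm4, a magnesium transporter gene, ranked 505, 925.5 and 768. At Trib1, whose pseudokinase recruits the COP1 ubiquitin ligase to its targets, the rank was 582.5, 834 and 803, at 79786 bp from the start site. As a kind, senescent-only regions had a median percentile rank of 52.2 and control-only regions 48.2, against 20.4 for regions called in all 6 libraries. The calls that made these classes and the ranks come from the same scores. A better rank of regions called in every list is therefore built into the classes, and the medians are a description.

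Among control-only regions the best rank belonged to the intronic Wwp2 region, at 64, 222.5 and 130 in control replicates 1, 2 and 3. Wwp2 encodes a HECT ubiquitin ligase. A region 234371 bp from the start of Setd4, a lysine methyltransferase gene, ranked 303, 304 and 190, and one near Cd9, a tetraspanin gene, 435, 346 and 540.5. At Dbi, which encodes the acyl-CoA-binding protein, an intronic region ranked 556.5, 460 and 444. A region 88679 bp from the start of Axin2, a negative regulator of Wnt signaling, ranked 656, 593 and 354. In these 5 regions no senescent library had a call. The senescent lists held 4220 to 9805 peaks and the control lists 2794 to 10601. Whether list length played a part was not tested.

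To compare strength within 1 common set, the 1106 regions of any kind called in all 6 libraries were ranked against each other in each library. The ranks were turned into normal scores, so that a difference of 1 is 1 SD of the set, and compared by limma across the whole set with Benjamini-Hochberg adjustment. Of the 855 regions, 160 could enter this fit. Over the 1106 regions 19 (1.72%) were higher in senescent and 23 (2.08%) higher in control libraries at an adjusted p under 0.05, and of the 160 single-E-box regions 2 were higher in senescent and 8 in control libraries. The difference was positive, higher in senescent, in 67 and not positive in 93, with a median of -0.20 against 0.01 over the whole set. The median was -0.33 for distal regions with neither motif (61 positive, 136 not) and 0.18 for promoter regions with 1 E-box. At an unadjusted p under 0.05, 15 were higher in senescent and 36 in control libraries, and 297 of the 1106 passed in either direction.

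The 2 that were higher in senescent libraries lay at Hlf and Atf6b. Hlf encodes a PAR bZIP transcription factor of the clock output, and its intronic region was 21060 bp into the gene. Its rank within the 1106 was 1020.5, 829.5 and 685.5 in control replicates 1, 2 and 3 and 169.5, 145 and 249 in senescent replicates 1, 2 and 3. The groups did not overlap, and the difference was 1.77 ± 0.32 (SE, limma adjusted p = 0.036). Atf6b encodes a transcription factor of the endoplasmic reticulum stress response. The region 8577 bp downstream of its start site had ranks of 661.5, 704 and 948.5 in control and 179.5, 179 and 161 in senescent libraries, a difference of 1.57 ± 0.27 (SE, limma adjusted p = 0.036). In the authors' full lists, the Hlf region was at percentile 78.7, 42.4 and 9.42 in control and 4.35, 1.56 and 5.55 in senescent libraries.

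Of the regions higher in control libraries, those at Trim47, Wwp2 and Lrmda differed most. Trim47 encodes a RING finger ubiquitin ligase. Its region with the tandem hexamer ranked 148, 181.5 and 536 of 1106 in control and 1103, 993 and 1013 in senescent libraries, a difference of -2.50 ± 0.48 (SE, limma adjusted p = 0.0431). The downstream Wwp2 region (chr8:107559296-107562253) ranked 402, 160 and 355.5 in control and 990.5, 1079.5 and 1062.5 in senescent libraries, and the difference was -2.28 ± 0.29 (SE, limma adjusted p = 0.0272). At Lrmda, in an intron 795219 bp from the nearest start site, the ranks were 552, 561 and 360.5 against 1008, 1099 and 1096 (difference -2.20, limma adjusted p = 0.036). In all 3 the senescent ranks were near the bottom of the common set, with no overlap.

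The other regions higher in control libraries moved less. Tead4, a TEAD factor gene of the Hippo pathway, had an intronic region that ranked 52, 48 and 64 in control and 345.5, 588.5 and 360.5 in senescent libraries (difference -1.37, limma adjusted p = 0.036). At Farp1, in an intron, the ranks were 116.5, 78 and 77 against 389, 541.5 and 338 (-1.10, limma adjusted p = 0.0443). At Ube2f, whose product transfers NEDD8, they were 169.5, 139.5 and 195 against 643.5, 477 and 627.5 (-1.10, limma adjusted p = 0.0373). Sobp (-1.08) and Zfp532 (chr18:65520400-65520853, -1.51) were the others, with limma adjusted p of 0.0373 and 0.036. At Mc2r, the gene of the corticotropin receptor, the difference was the largest on the senescent side (1.79 ± 0.51, SE) and did not pass (limma adjusted p = 0.0958). Its ranks did not overlap but spread widely in control libraries, at 444.5, 1057 and 1033, against 200, 293 and 213 in senescent libraries.

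These calls were near the threshold. When any 1 of the 6 libraries was left out, 0 to 2 of the single-E-box regions were called on either side, and each of the 10 regions lost its call in at least 5 of the 6 fits. No direction changed. Across these fits the difference stayed within 1.36 to 2.01 at Hlf and -2.43 to -2.11 at Wwp2, with adjusted p from 0.04996 to 0.139 and from 0.04996 to 0.101.

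**Figure D5:**
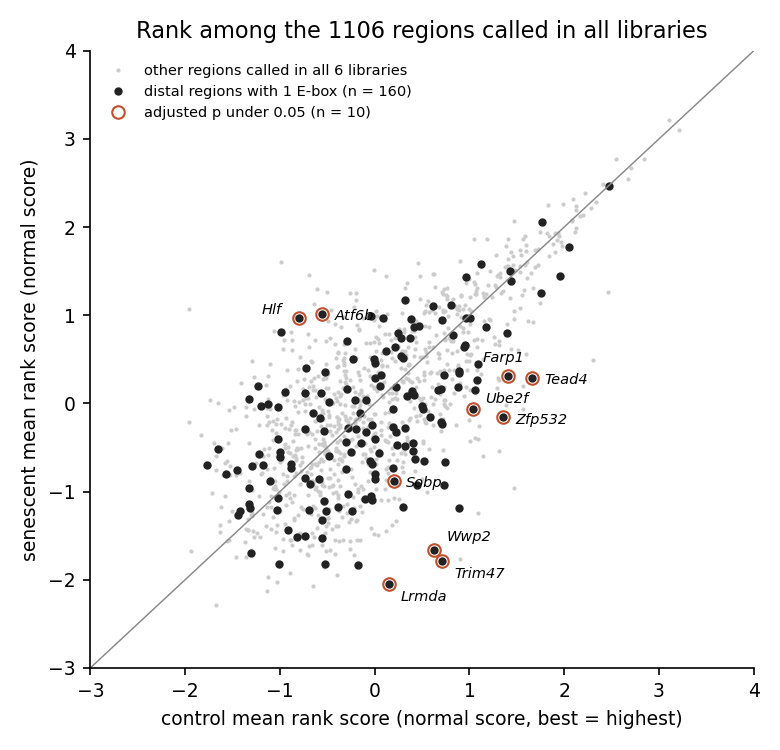
Mean normal score of the rank in control libraries (x axis) and in senescent libraries (y axis) for the 1106 regions called in all 6 libraries, higher for stronger peaks. The 160 single-E-box regions are black, the rest grey, and the 10 with an adjusted p under 0.05 are circled in red and named. Hlf and Atf6b lie above the line of equal scores and the other 8 below it, with Trim47, Wwp2 and Lrmda farthest from it.

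Of genes with known roles in these cells, few had a single-E-box distal region nearest to them. The lists were clock genes, genes of senescence and its secretory phenotype, fibroblast matrix genes, glucocorticoid response genes and other factors of the bHLH-ZIP family that bind E-boxes. Of 26 clock genes 2 did, Nr1d1 and Hlf, both described above and both called in all 6 libraries. The list took 2 of the 855 regions (0.234%) and 23 of all 4515 distal regions (0.509%).

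The senescence list of 35 genes took 5 regions, 0.585% of the 855 against 0.465% of distal regions, of which those at Mcl1 and Mdm2 are described here. Mcl1, an anti-apoptotic BCL2 family gene, had a region 9406 bp downstream that ranked 365.5, 202.5 and 306 against 169, 295 and 165. The region assigned to Mdm2, the ubiquitin ligase of p53, was inside an intron of Cpm, 27991 bp away, and was senescent-only (ranks 1874.5, 5913 and 1071.5).

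Matrix genes had 6 regions, 0.702% of the 855 against 1.15% of distal regions, and none was limited to 1 group. A region 63216 bp upstream of Col1a1, the gene of a type I collagen chain, was called in all 6 libraries at ranks 175, 140.5 and 336 in control and 566, 298.5 and 185 in senescent libraries, which overlapped. Fn1, the fibronectin gene, had 3 regions within 10000 bp of its start site, called in 1 and 1, 3 and 1, and 2 and 2 control and senescent libraries. Prrx1, a homeobox gene of mesenchyme, and Col6a3 had 1 each, called in 3 control and 2 senescent libraries.

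Glucocorticoid response genes had 6 regions, at Tsc22d3, Cebpb, Dusp1, Klf9 and Klf15 (2 regions), and 4 of these were called in all 6 libraries. The list took 0.702% of the 855 against 0.576% of distal regions. Both groups had received dexamethasone. The Cebpb region, with its E-box in the UTR of this bZIP factor gene, ranked 812.5, 905 and 6158.5 in control and 333, 488 and 514 in senescent libraries (difference 1.13 ± 0.46, SE, limma adjusted p = 0.175). The nearer Klf15 region, 1075 bp from the start of this Krüppel-like factor gene, ranked 890, 2636.5 and 6714.5 against 433.5, 1252.5 and 803. These ranks overlapped (difference 1.17 ± 0.48, SE, limma adjusted p = 0.176). As percentiles they did not, at 31.9 to 78.7 in control and 10.3 to 15.9 in senescent libraries. Klf9 ranked 1050, 780 and 5754.5 against 2310, 8330 and 2499.5. At Dusp1, a phosphatase of MAP kinases, a region 3924 bp downstream was called in senescent replicates 2 and 3 only. The bHLH-ZIP factors took 3 regions (0.351%, against 0.266% of distal regions). Mnt had a region called in all 6 libraries, Myc one 449317 bp away called in 2 control and 3 senescent libraries, and Mitf one called in 2 control libraries and no senescent library.

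The 855 regions had 773 different nearest genes. Of these, 73 were nearest to at least 2 regions and 9 to at least 3, among them Amotl2, Fn1, Nfe2l3, Setd4, Slc14a2, Sorl1, Tspan9 and Wwp2. At Wwp2 all 3 regions were on the control side, 2 of them control-only (the other at ranks 559, 758 and 2662 in control replicates 1, 2 and 3) and the downstream one ranked lower in senescence. At Sorl1, a sorting receptor gene, 2 of 3 were control-only, and at Setd4 likewise. At Tspan9, a tetraspanin gene, 2 of 3 were senescent-only. Other genes were mixed. The regions at Amotl2 were called in 2 and 0, 1 and 2, and 3 and 3 control and senescent libraries. In the same order the calls were 1 and 1, 3 and 1, and 1 and 3 at Nfe2l3. At Slc14a2 they were 1 and 1, 2 and 0, and 3 and 3. Regions that share a gene are neighbours and not independent. The nearest gene had a promoter region of its own, called in at least 2 libraries, for 203 of the 855 regions (23.7%), against 26.2% of distal regions with neither motif.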

How the data were processed

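Peak lists of 6 BMAL1-ChIP-seq libraries were used, 3 control and 3 senescent, grouped and numbered by their sample titles; the 6 input libraries and the RNA-seq were not analysed here. The authors precipitated sonicated chromatin with an antibody against BMAL1 and added adapters on the beads with Tn5 transposase (TAF-ChIP). They aligned paired reads to mm10 by the Burrows-Wheeler Aligner, kept pairs with a uniquely mapped end, marked duplicates with Picard, and called peaks per library with MACS2 at an FDR of at most 1%. Use of the input as control is not given in the sources used here. The score they deposited was read as the -log10 of a q-value, because the smallest score of each list was 2.02 to 2.12. It is not normalized between libraries and served for ranks within a list only. No summits were given, and peak centres stood in. Depth could not be computed, so a longer list may reflect a deeper library. The study's DiffBind test on reads was not repeated.

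Start sites came from protein-coding transcripts of GENCODE M21 (basic), and E-box, AP-1 and other motifs were exact matches on both strands of the GRCm38 RefSeq sequence, which leaves out weaker sites. Libraries were compared by exact two-sided permutation (20 arrangements) or sign flips (64 arrangements), with Benjamini-Hochberg adjustment over 9 comparisons; for the 2 on calls, which chose the regions, no p is printed. Ranks among regions called in all 6 libraries were compared with limma 3.58.1 in R 4.3.3. The fit was also run on simulated scores with known shifts and independent noise, and no result here rests on that run. Python 3.11.15, pysam 0.24.0, pandas 2.3.3 and scipy 1.17.1 did the rest. The regions and gene lists were chosen with earlier results of these data known. The text names the 10 best-ranked regions called in all 6 libraries, the 5 best of each group-only class, the 3 largest rank differences in each direction, clock genes, regions next to the 1000-bp limit, regions past the rank threshold and members of the gene lists. Genes nearest to at least 3 regions were added after the values were seen. Alternatives were a stricter score, equal peak numbers, a 50% overlap, autosomes and X only, 3000 bp as the distal limit, motifs within 100 bp of the centre, other limits of nearness, plain ranks, a replicate block, leaving out each library and, chosen after seeing the data, regions called in all 6 libraries only and the comprehensive annotation. Regions nearest to 1 gene of the senescence list are not reported here.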

Additional observations from a re-analysis of the deposited data

Results flagged for a closer look

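The rank of single-E-box distal regions against promoter regions with 1 E-box had opposite signs in the groups. Every control library placed the distal regions ahead (-7.42, -3.67 and -0.358 points of median percentile rank in replicates 1, 2 and 3) and every senescent library placed them behind (3.38, 5.68 and 1.62 points). The groups differed by 7.37 points (p = 0.1 by an exact two-sided permutation test, the lowest value possible with 3 against 3, adjusted p = 0.5 over 10 such comparisons). Among regions called in all 6 libraries the difference was 8.98 points, from a mean of -6.36 ± 5.15 in control to 2.62 ± 1.62 in senescent libraries (both SD, n = 3, exact p = 0.1). With equal peak numbers the groups overlapped, at -7.39, -3.45 and 4.12 points in control and 2.51, 5.54 and 1.97 in senescent libraries. The cause was not tested.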

How the results depend on the processing

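A count of calls depends on the length of each list, and depth is unknown. Senescent-only regions (267 of 855) numbered 163 with peaks above the median score, 153 of 539 with equal peak numbers, and 151 to 374 when 1 library was left out. The set of regions that met the rule changed with each of these settings, so the counts are not shares of 855. Control-only regions (90) numbered 36 to 118 when 1 library was left out. The lead over distal regions with neither motif was -3.82 points in regions called in all 6 libraries, -6.55 with peaks above the median score, -8.17 with equal peak numbers and -15.2 to -12.2 when 1 library was left out. The lag behind regions with 2 or more E-boxes was then 16.001 to 18.5. The second hexamer gave -4.73 points in regions called in all 6 libraries, -11.0 with peaks above the median score (exact p = 0.0625) and -8.76 to -7.83 when 1 library was left out. With 5 libraries no sign-flip p can fall below 0.0625. Against promoter regions the mean turned to 0.609 above the median score, 0.549 with equal peak numbers, 2.58 with motifs within 100 bp of the centre, and -0.813 to 1.18 when 1 library was left out. The rank difference between groups turned to -0.298 in regions called in all 6 libraries, was 7.47 with equal peak numbers (exact p = 0.1) and ran from -1.53 to 6.55 when 1 library was left out. The rank by E-box position turned to 2.49 with 100 bp as near, 0.931 above the median score and 0.068 in regions called in all 6 libraries, and was -4.39 beyond 3000 bp (exact p = 0.03125) and -4.22 to -0.828 when 1 library was left out. In the rank fit, 4 regions were higher in senescent libraries with plain ranks and 4 with motifs within 100 bp of the centre. With the replicate block 0 were called on either side by limma (13 and 30 at an unadjusted p under 0.05). Rank deviations of same-numbered libraries from their group means had correlations of -0.0474 to 0.0682. These ranks showed no pairing by number, but they cannot show whether the samples were handled in pairs. Leaving out 1 library gave 0 to 2 regions on either side. The causes were not tested.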
